A study of Homo sapiens with 6 samples.

Results

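U251 is an established human glioma cell line, and 6-shogaol is a pungent compound of dried ginger. The cadherins and protocadherins were taken as every gene of the deposited table whose symbol is CDH followed only by digits or begins with PCDH, leaving out 5 symbols that end in P and 4 antisense genes. This gave 91 of 60612 genes. Of these, 59 had a mean raw count of 10 or more over the libraries, 10 had counts below that mean, and 22 were at 0 in every library. The members comprised 18 classical cadherins (5 of type I and 13 of type II), 5 other cadherins, 14 non-clustered protocadherins and 54 clustered protocadherins (16 alpha, 16 beta and 22 gamma). PCDHA14 and PCDH8P1, which the rule keeps, are annotated as pseudogenes.

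RNA was sequenced from U251 cells of wild-type genotype exposed to 6-shogaol for 24 h (3 libraries) and from the same cells without 6-shogaol (3 libraries). The labels write the dose as 60 μm, read here as micromolar, and do not name a vehicle for the controls. They do not say that replicates were separate cultures, so each p-value refers to variation among these libraries alone, and that variation may be technical. Totals ran from 43516840 to 60018999 counts per library, and a gene at 0 could therefore have had up to 0.05 to 0.0689 CPM (counts scaled by the library total), a limit of 3 counts that covers counting error only. All 9 astrocytic glioma markers had counts, although S100B did not exceed 1.35 CPM. Their summed level ran from 7744 to 11767 CPM with 6-shogaol and from 9404 to 9566 CPM in controls, mostly VIM. GFAP, NES and TNC passed the edgeR test and were lower with 6-shogaol (adjusted p = 0.00655, 0.0484 and 0.0351), and GFAP was at 9.05, 8.39 and 9.19 CPM with 6-shogaol against 33.9, 24.2 and 23.8 CPM in controls. Without overlap of the groups 6 of the 9 markers were lower (13.9% of all tested genes) and CD44 was higher (14% of all). Over all tested genes 1.71% passed the edgeR test as lower. The part of these marker differences in the results on cadherins was not tested. MOG and MAG of the oligodendrocyte markers and AIF1 and CD3E of the leukocyte markers were at 0. In a bulk culture, fewer cells that express a gene and less RNA per cell cannot be told apart.

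Cadherins are calcium-dependent adhesion proteins. Classical cadherins bind the same cadherin on a neighbouring cell and link through catenins to the actin cytoskeleton, whereas protocadherins lack the catenin-binding tail and give neurons and glia weaker, often gene-specific adhesion and recognition. The alpha, beta and gamma protocadherins lie in tandem on the long arm of chromosome 5, where each variable first exon has its own promoter. The alpha and gamma transcripts are spliced to last exons common to their cluster, and the single-exon beta genes are not.

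The promoters of the clustered genes are known for a conserved element with the core letters CGCT. In RefSeq promoter sequences (build GRCh38.p14, 250 bases before to 50 after each start), 70 of the 91 members had an entry. For each cluster, the 9-letter word found in most of its own promoters was sought on both strands. It is a search within these promoters, so its frequency there is a description. The beta word, GGTGGCGCT (AGCGCCACC on the other strand), was in 13 of 14 beta genes, in 0 of 13 alpha genes and in 0 of 20 gamma genes, against 0.619% of all 27305 symbols with a promoter. It began a median of 66 bases before the start. The alpha word GATGTCGCT was in 9 of 13 alpha genes and 0.128% of all symbols, and the gamma word GCGCCGCTG in 10 of 20 gamma genes and 1.59% of all symbols. The core CGCT alone, which all these words overlap, was in 71.9% of all symbols.

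The stretches upstream of the start around the word are shown on the plus strand of chromosome 5 for the 3 beta genes that passed the expression test, for 2 beta genes that did not, and for 1 alpha and 1 gamma gene whose words differ. Capitals mark the word, and the start is that of RefSeq. In the deposited data PCDHB14 and PCDHB16 start before their stretches, at 141222932 and 141181399. PCDHA10 starts within its stretch there, at 140855883. PCDHB9 lies at chr5:141187055-141187123, PCDHB10 at chr5:141192280-141192348, PCDHB14 at chr5:141223244-141223312, PCDHB16 at chr5:141182291-141182359, PCDHB5 at chr5:141135160-141135205, PCDHA10 at chr5:140855822-140855890 and PCDHGB1 at chr5:141350007-141350075.
PCDHB9: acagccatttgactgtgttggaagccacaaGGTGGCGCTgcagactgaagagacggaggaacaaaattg
PCDHB10: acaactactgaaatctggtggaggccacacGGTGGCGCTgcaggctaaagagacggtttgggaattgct
PCDHB14: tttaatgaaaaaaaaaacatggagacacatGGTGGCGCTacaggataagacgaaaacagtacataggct
PCDHB16: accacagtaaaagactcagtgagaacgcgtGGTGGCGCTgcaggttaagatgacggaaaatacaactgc
PCDHB5: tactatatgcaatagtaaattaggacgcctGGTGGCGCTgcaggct
PCDHA10: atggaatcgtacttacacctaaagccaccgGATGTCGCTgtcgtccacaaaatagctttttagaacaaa
PCDHGB1: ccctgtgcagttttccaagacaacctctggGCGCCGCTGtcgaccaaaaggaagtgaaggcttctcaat

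With 6-shogaol, 7 members passed edgeR's quasi-likelihood test at an adjusted p under 0.05. PCDH1 rose, and CDH5, CDH6, PCDH20, PCDHB9, PCDHB10 and PCDHB14 fell. These are 11.9% of the 59 tested members, against 3.38% of all 19279 tested genes. In the downward direction 6 members passed, where 1.71% of all tested genes did, and in the upward direction 1, where 1.67% of all did. At an unadjusted p under 0.05, 18 members were lower and 4 higher with 6-shogaol (30.5% and 6.78% of the members), where 9.95% of all genes were lower and 10.4% higher. The CPM values of the groups did not overlap for 18 members that were lower (13.9% of all genes) and for 4 that were higher (14% of all genes). The median log2 fold change of the tested members was -0.26, and 44 of them lay below 0, against a median of -0.00 over all genes and 50% below 0. DESeq2 called 13 members, where it called 9.68% of all tested genes. With edgeR, 0 members passed without the second 6-shogaol library, control 1 or control 2 (17, 17 and 16 lower at an unadjusted p under 0.05). Without the third 6-shogaol library CDH5 and CDH6 passed, without control 3 PCDH1 and PCDH20 passed, and without the first 6-shogaol library the 7 members and PCDHGA6 passed. The tested members were 58 of the 59 with a mean count of 10 or more (PCDHA1 was not tested) and PCDHA8, with a mean count of 8.5.

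**Figure D1:**
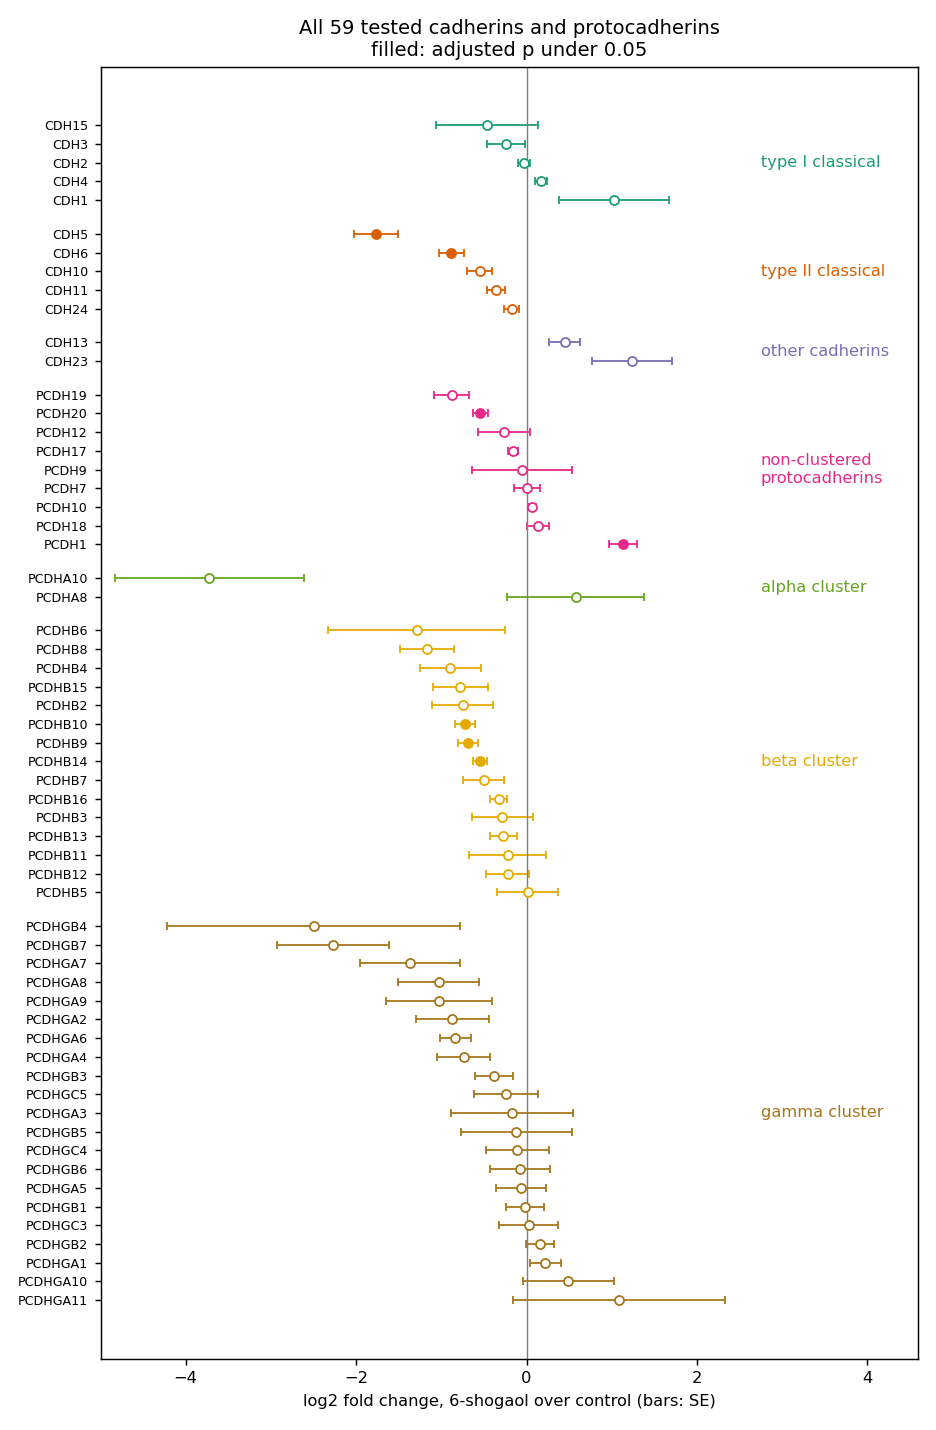
Log2 fold change (6-shogaol over control) of the 59 tested members by class, with standard errors as bars. Filled points are the 7 members with an adjusted p under 0.05, of which PCDH1 lies above 0 and the other 6 below, and the bars are longest for the sparsely counted alpha and gamma genes.

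Every one of the 5 measured type II classical cadherins had a log2 fold change below 0, and CDH5 and CDH6 passed the test. Over all tested genes 50% lay below 0 and 1.71% were called lower. The type I cadherins N-cadherin and R-cadherin stayed close to their control level. CDH2 encodes N-cadherin, the main classical cadherin of neural cells. It was at 106, 98.4 and 109 CPM with 6-shogaol and at 105, 106 and 108 CPM in controls. The groups overlapped, and the log2 fold change was -0.03 (SE 0.07; edgeR adjusted p = 0.858). CDH4, encoding R-cadherin of retina and brain, had 75.6, 68.7 and 69.2 CPM with 6-shogaol against 62.5, 62.5 and 64.3 CPM in controls. All 6-shogaol libraries lay above all controls by a small margin, with a log2 fold change of 0.17 (SE 0.07) that did not pass the test (edgeR adjusted p = 0.218). CDH1, the epithelial E-cadherin, was nearly absent, at 29, 8 and 12 counts with 6-shogaol against 10, 8 and 8 counts in controls. The first 6-shogaol library alone was high, and the log2 fold change of 1.03 (SE 0.65) did not pass (edgeR adjusted p = 0.432). The placental P-cadherin CDH3 and the muscle M-cadherin CDH15 had log2 fold changes of -0.24 and -0.46, with SEs of 0.22 and 0.60. None of the 5 type I genes passed edgeR or DESeq2, and CDH4 alone had an unadjusted edgeR p under 0.05.

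CDH5 encodes VE-cadherin, the junctional cadherin of endothelium. It had 0.708, 0.538 and 0.827 CPM with 6-shogaol against 2.50, 2.34 and 2.22 CPM in controls. Every control library stood well above every 6-shogaol library. CDH5 fell by 1.77 on the log2 scale (SE 0.25; edgeR adjusted p = 0.0192), which is 3.40-fold lower, at counts of 27 to 40 with 6-shogaol and 129 to 137 in controls. The endothelial markers PECAM1, VWF, TEK and EMCN summed to between 0 and 0.354 CPM with 6-shogaol and to between 0.426 and 0.650 CPM in controls. VWF was at 0.230, 0 and 0.253 CPM with 6-shogaol against 0.426, 0.445 and 0.550 CPM in controls, lower without overlap (edgeR adjusted p = 0.428). PECAM1, TEK and EMCN overlapped between the groups, and PECAM1 was at 0 in all libraries but control 2. The part of these traces in the CDH5 result was not tested.

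CDH6 encodes K-cadherin, first described in kidney. It was at 8.37, 9.29 and 11.3 CPM with 6-shogaol and at 19.3, 18.2 and 15.95 CPM in controls. The groups were apart, and CDH6 fell by 0.88 on the log2 scale (SE 0.15; edgeR adjusted p = 0.0287). CDH10, a type II cadherin of brain, had 19.5, 20.4 and 23.7 CPM with 6-shogaol against 35.7, 32.3 and 25.0 CPM in controls. Control 3 came close to the highest 6-shogaol library, and the log2 fold change of -0.55 (SE 0.15) did not pass (edgeR adjusted p = 0.101).

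CDH11, encoding the mesenchymal OB-cadherin and the most counted type II member, had 47.1, 58.9 and 55.5 CPM with 6-shogaol against 74.9, 63.6 and 69.0 CPM in controls. No library overlapped between groups, and the log2 fold change was -0.36 (SE 0.11; edgeR adjusted p = 0.119). CDH24 was at 33.6, 36.3 and 37.9 CPM with 6-shogaol and at 37.7, 42.2 and 41.9 CPM in controls. It was the only measured type II member whose groups overlapped. Over all tested genes, 13.9% were lower without overlap. CDH10 and CDH11 passed DESeq2, where edgeR did not call them. DESeq2 called 9.68% of all tested genes. Summed over all members, type II came to 121 ± 10.5 CPM with 6-shogaol and 161 ± 8.34 CPM in controls (SD, n = 3 each). The type I sum was 178 ± 7.83 CPM with 6-shogaol and 173 ± 2.72 CPM in controls. No difference between the types was tested.

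**Figure D2:**
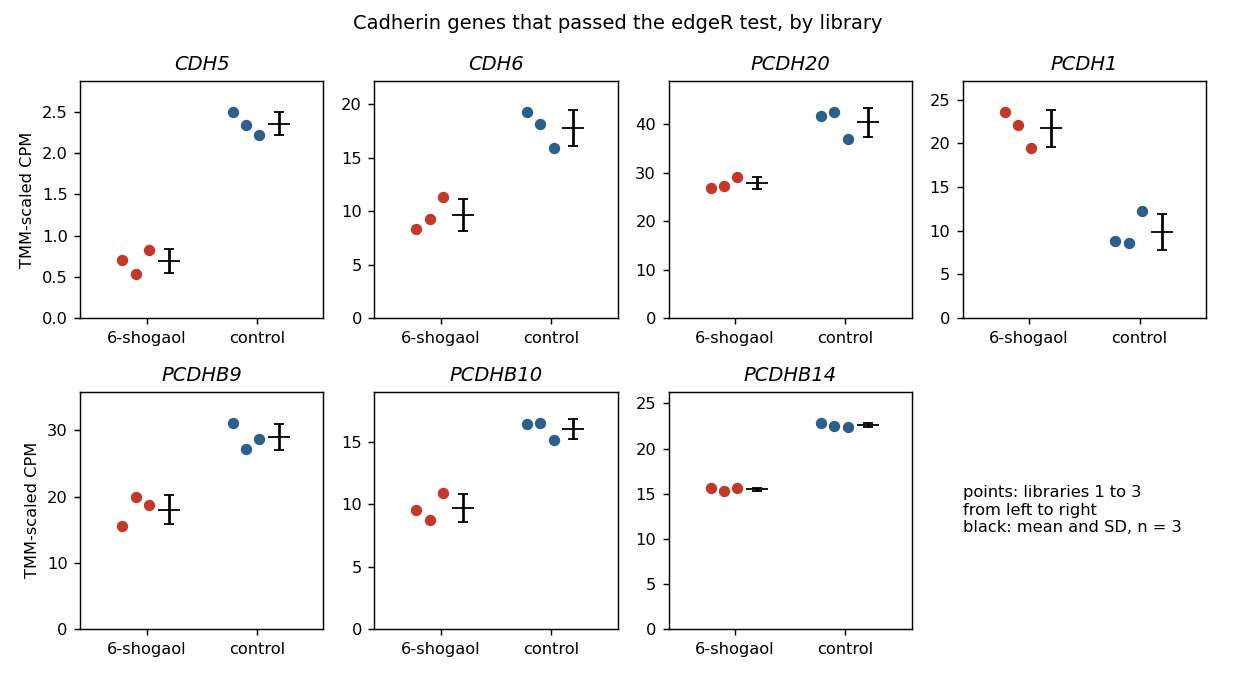
TMM-scaled CPM of the 7 members that passed the test, with points for libraries 1 to 3 of each group and the mean and SD in black. The 6-shogaol libraries lie below the controls for 6 genes and above them for PCDH1, and in none of the 7 do the groups overlap.

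The tested cadherins outside the classical types were CDH13 and CDH23. T-cadherin, encoded by CDH13, is held at the membrane by a lipid anchor without a cytoplasmic tail. It had 29.7, 19.4 and 29.8 CPM with 6-shogaol against 18.2, 22.1 and 17.6 CPM in controls. The second 6-shogaol library fell within the control range, and the log2 fold change of 0.45 (SE 0.19) did not pass (edgeR adjusted p = 0.236). CDH23, known from the tip links of hair cells, was sparse at 28, 33 and 41 counts with 6-shogaol against 16, 11 and 23 counts in controls. Its groups were apart at a log2 fold change of 1.24 (edgeR adjusted p = 0.199, SE 0.47).

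Among the non-clustered protocadherins, PCDH1 rose, PCDH20 fell and the most abundant member, PCDH10, differed little. PCDH1, known from airway epithelium and as a receptor of New World hantaviruses, had 23.6, 22.1 and 19.4 CPM with 6-shogaol against 8.78, 8.62 and 12.2 CPM in controls. All 6-shogaol libraries were well above all controls. The rise was 2.20-fold, a log2 fold change of 1.14 (edgeR adjusted p = 0.0192, SE 0.16). The 6 epithelial markers summed to between 4.67 and 11.5 CPM with 6-shogaol and to between 4.70 and 9.78 CPM in controls, mostly CLDN4, and these ranges overlap. Of these markers ESRP1 was higher without overlap, at 0.496, 0.718 and 0.505 CPM with 6-shogaol against 0.232, 0.239 and 0.200 CPM in controls (edgeR adjusted p = 0.143), and KRT14, at 0 in every 6-shogaol library, was lower. Their part in the PCDH1 result was not tested.

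PCDH20 had 26.9, 27.2 and 29.2 CPM with 6-shogaol against 41.6, 42.5 and 37.0 CPM in controls. The groups were clearly apart, and PCDH20 fell by 0.54 on the log2 scale (SE 0.09; edgeR adjusted p = 0.027). Of the 100-base windows of its transcripts, 95.7% also occur in an overlapping transcript of AL592490, which held 0 counts in all 6 libraries. PCDH19, known for a female-limited epilepsy, was at 1.56, 2.19 and 1.81 CPM with 6-shogaol and at 3.17, 3.73 and 3.33 CPM in controls. Its groups were also apart, and the log2 fold change of -0.88 (SE 0.20) missed the threshold (edgeR adjusted p = 0.0693).

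PCDH10, a delta protocadherin that binds actin regulators through its tail, had 312, 313 and 315 CPM with 6-shogaol against 299, 302 and 298 CPM in controls. The libraries within each group were close to each other, so the groups stood apart at a log2 fold change of only 0.06 (edgeR adjusted p = 0.553, SE 0.05). PCDH17, known from synapse formation, was at 124, 128 and 130 CPM with 6-shogaol and at 141, 143 and 144 CPM in controls. These groups were apart as well, and the log2 fold change was -0.16 (SE 0.06; edgeR adjusted p = 0.174). An overlapping gene on the other strand, AL445288.1, shares 7.85% of the exon bases of PCDH17 and had 3, 0 and 0 counts with 6-shogaol against 15, 9 and 40 counts in controls. PCDH9 was low in the first 6-shogaol library alone, at 88 counts against 378 and 450 in the other two and 422, 413 and 295 in controls. PCDH7, PCDH12 and PCDH18 had log2 fold changes between -0.26 and 0.13 and did not pass. The non-clustered sum was 527 ± 8.25 CPM with 6-shogaol and 530 ± 7.02 CPM in controls (SD, n = 3 each).

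The beta protocadherins were lower almost throughout: 14 of the 15 measured genes had a log2 fold change below 0, 7 of them with an unadjusted p under 0.05, and 3 passed the test. Over all tested genes 50% lay below 0, 9.95% were lower at that unadjusted p and 1.71% passed in that direction. PCDHB9 (chromosome 5, 141187127 to 141191541 in the deposited table) had 15.6, 19.9 and 18.7 CPM with 6-shogaol against 31.2, 27.1 and 28.7 CPM in controls. The groups were well apart, and PCDHB9 fell by 0.68 on the log2 scale (SE 0.12; edgeR adjusted p = 0.0324). PCDHB10, its downstream neighbour (141192353 to 141195647), had 9.54, 8.73 and 10.96 CPM with 6-shogaol against 16.5, 16.6 and 15.2 CPM in controls. It fell by 0.72 (SE 0.12; edgeR adjusted p = 0.0289), again with no overlap. PCDHB14 (141222932 to 141227759) had 15.6, 15.3 and 15.6 CPM with 6-shogaol against 22.9, 22.5 and 22.4 CPM in controls. Its libraries were the most even of the 3, and it fell by 0.54 (SE 0.08; edgeR adjusted p = 0.021).

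Beta genes are similar in sequence, and 100-base windows found also in transcripts of other genes made up 5.99% of PCDHB14, 15.5% of PCDHB9 and 24.7% of PCDHB10. How reads from such windows were assigned is not given in the sources used here. Exons of other expressed genes overlapped 7.63% of PCDHB9 and 1.37% of PCDHB10. The gene over PCDHB9, AC244517.6, had 12, 30 and 15 counts with 6-shogaol against 29, 20 and 5 in controls, and the gene over PCDHB10, AC244517.7, had 61, 44 and 33 counts with 6-shogaol against 38, 55 and 63 in controls.

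PCDHB16 had 18.8, 18.6 and 16.5 CPM with 6-shogaol against 22.1, 21.5 and 24.1 CPM in controls. Its groups did not overlap, and its log2 fold change of -0.33 (SE 0.10) did not pass (edgeR adjusted p = 0.121). PCDHB8 was at 0.832, 0.758 and 1.36 CPM with 6-shogaol and at 1.82, 1.98 and 2.80 CPM in controls. It was lower in every 6-shogaol library at a log2 fold change of -1.17 (edgeR adjusted p = 0.102, SE 0.32), and 29.9% of its windows are shared, the highest share among the measured beta genes.

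PCDHB4 had 1.12, 0.738 and 0.735 CPM with 6-shogaol against 2.09, 1.74 and 1.0 CPM in controls, where control 3 fell within the 6-shogaol range. PCDHB15 had 0.797, 0.518 and 0.873 CPM with 6-shogaol against 1.47, 1.28 and 1.0 CPM in controls, with no overlap. Their edgeR adjusted p-values were 0.223 and 0.241. PCDHB6, at a log2 fold change of -1.29 (edgeR adjusted p = 0.55, SE 1.04), ran from -2.34 to -0.74 with 1 library left out and rested on 7, 14 and 0 counts with 6-shogaol and on 26, 20 and 10 in controls. PCDHB5, with an estimate of 0.01 (SE 0.36), was the measured beta gene not below 0. The word GGTGGCGCT stood in the promoters of PCDHB9, PCDHB10 and PCDHB14 and equally in those of PCDHB16 and PCDHB5.

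The division of the beta cluster among its genes was similar in both groups. PCDHB9 held 20.7% of the beta CPM with 6-shogaol and 22.7% in controls, PCDHB16 held 20.7% with 6-shogaol and 17.7% in controls, and PCDHB14 held 17.8% with 6-shogaol and 17.7% in controls. Summed over all 16 genes, the cluster was at 83.3, 87.2 and 90.8 CPM with 6-shogaol and at 128, 135 and 121 CPM in controls. The groups were far apart relative to their spread, with means of 87.1 ± 3.76 CPM with 6-shogaol and 128 ± 7.21 CPM in controls (SD, n = 3 each), a ratio of 0.680.

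**Figure D3:**
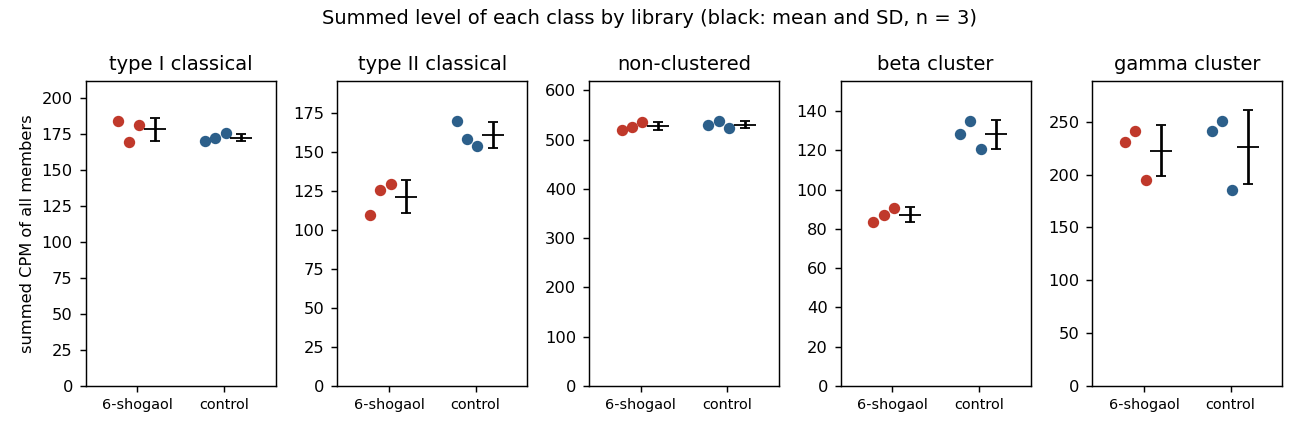
Summed CPM of all members of 5 classes in each library, with the mean and SD in black (n = 3). The 6-shogaol libraries lie below the controls for the type II cadherins and the beta cluster, and the groups overlap for type I, the non-clustered protocadherins and the gamma cluster.

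In the gamma cluster, 0 of 21 tested genes passed edgeR, where 3.38% of all tested genes did. At an unadjusted p under 0.05, 3 were lower (14.3%, against 9.95% of all genes) and 0 higher (10.4% of all). DESeq2 called 2, PCDHGA6 and PCDHGB7, both lower, where it called 9.68% of all tested genes. The log2 fold change lay below 0 for 16 genes and above 0 for 5, with a median of -0.17 (50% of all genes lay below 0). PCDHGB2, by far the most counted gamma gene, had 135, 133 and 101 CPM with 6-shogaol against 120, 122 and 88.7 CPM in controls. The third library of each group was the lowest, the groups overlapped, and the log2 fold change was 0.16 (SE 0.16; edgeR adjusted p = 0.641). PCDHGB1, the second, had 39.6, 55.6 and 51.0 CPM with 6-shogaol against 57.2, 56.7 and 34.2 CPM in controls. Its log2 fold change was -0.02 (SE 0.22; edgeR adjusted p = 0.976), and it turned positive without the first 6-shogaol library (0.11), without control 1 (0.10) or without control 2 (0.09).

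PCDHGA6 was at 5.10, 3.65 and 3.56 CPM with 6-shogaol and at 6.94, 7.42 and 7.63 CPM in controls. Every control was above every 6-shogaol library, and the log2 fold change of -0.84 (SE 0.18) missed the threshold narrowly (edgeR adjusted p = 0.0557). PCDHGB7 had 0.549, 0.159 and 0.276 CPM with 6-shogaol against 0.948, 2.98 and 0.900 CPM in controls, where control 2 stood far above the others (edgeR adjusted p = 0.115). PCDHGA4 had 7.75, 10.5 and 6.45 CPM with 6-shogaol against 13.8, 19.0 and 8.60 CPM in controls, with control 3 below the highest 6-shogaol library (edgeR adjusted p = 0.236). PCDHGB4 had 11, 0 and 0 counts with 6-shogaol against 46, 18 and 0 in controls (edgeR adjusted p = 0.478). With libraries at 0 in both groups, the size of its fitted fold change is not read.

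Estimates of single gamma genes were loose. Their median SE was 0.38, against 0.15 for the classical cadherins, and their coefficient of variation among controls had a median of 37.0%. The cluster sum varied by 15.5% among controls and came to 223 ± 24.2 CPM with 6-shogaol and 226 ± 35.1 CPM in controls (SD, n = 3 each). In GENCODE 29 (GRCh38), at least 80% of the gamma genes share exons of 59, 89 and 2033 bases, and a median of 42.6% of a measured gamma gene's windows are shared with other genes. None of the 5 type I cadherins had a shared window. Measured beta genes had a median of 9.03% shared windows, and the median SE of the tested beta genes was 0.32. Counts of single alpha and gamma genes are uncertain wherever the counting had to divide reads from common exons. The part of shared exons in the loose estimates was not tested.

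PCDHGB2 took 58.3%, 55.0% and 51.6% of the gamma CPM with 6-shogaol against 49.7%, 48.5% and 47.7% in controls. Its share was higher in each 6-shogaol library than in any control, while its CPM overlapped between the groups. PCDHGB1 took 17.1%, 23.1% and 26.1% with 6-shogaol against 23.7%, 22.6% and 18.4% in controls, with no such order. These shares are descriptions and were not tested.

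**Figure D4:**
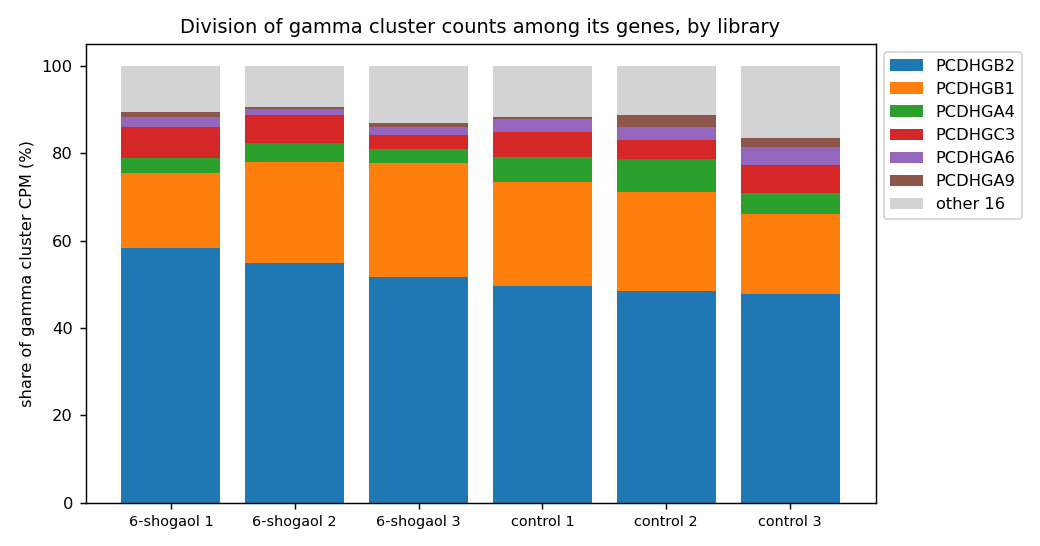
Share of the summed gamma cluster CPM held by each gene in each library, with 6 genes coloured and the other 16 in grey. The coloured genes are PCDHGB2, PCDHGB1, PCDHGA4, PCDHGC3, PCDHGA6 and PCDHGA9. They are not the 6 most counted. In grey, PCDHGA5 (mean count 208.7), PCDHGA1 (185.3), PCDHGB3 (175.3) and PCDHGA10 (168) exceed PCDHGA9 (163.7). PCDHGB2 takes 51.6% to 58.3% with 6-shogaol and 47.7% to 49.7% in controls.

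The alpha cluster was almost silent. Its summed level was 0.283, 0.817 and 0.735 CPM with 6-shogaol and 0.793, 0.736 and 1.40 CPM in controls, which overlap. PCDHA10 had 0, 4 and 0 counts with 6-shogaol against 19, 22 and 24 counts in controls. All controls were above all 6-shogaol libraries, and edgeR gave an adjusted p of 0.121. The fitted fold change at such counts depends on the prior count, so its size is not read. PCDHA1 had 4, 8 and 27 counts with 6-shogaol against 0, 4 and 31 in controls, where the third library of each group was the highest. PCDHA8, at 12, 12 and 5 counts with 6-shogaol and 3, 4 and 15 counts in controls, overlapped between the groups.

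**Figure D5:**
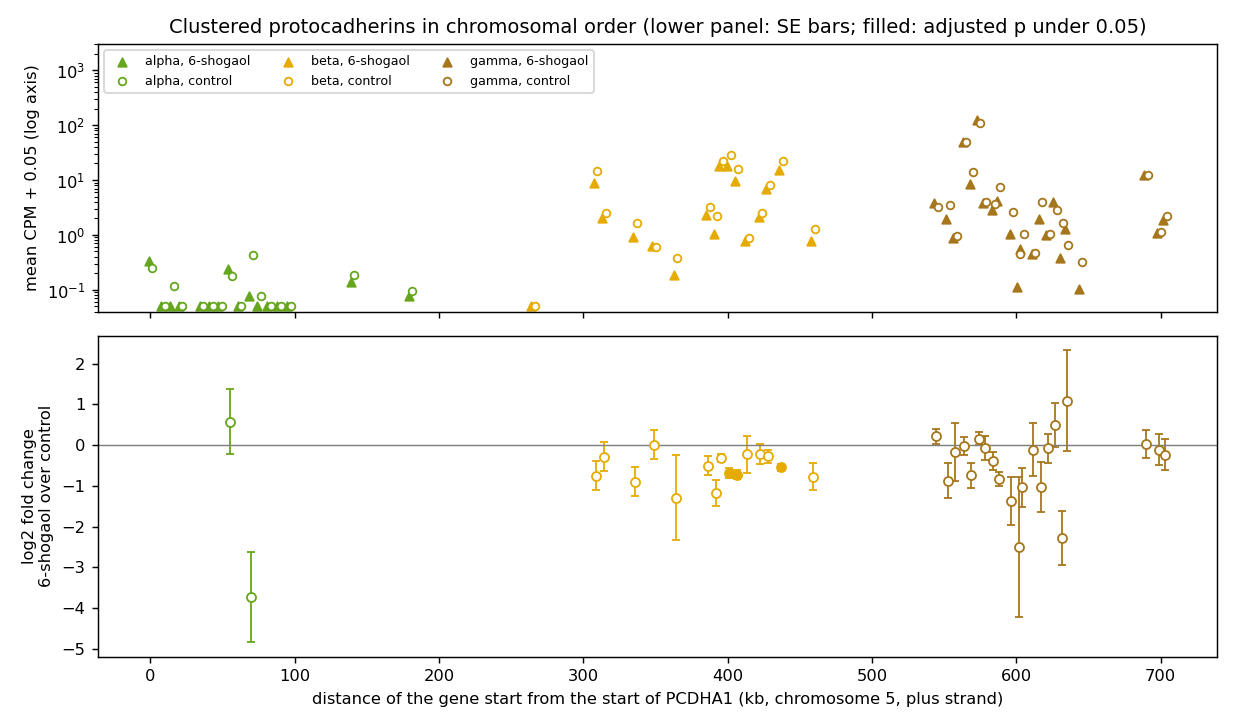
Clustered protocadherins by distance from the start of PCDHA1 (kb), with the mean CPM of each group plus 0.05 on a log axis above and the log2 fold change (6-shogaol over control) with SE bars below. Most alpha genes are at 0 in both groups, and 14 of the 15 tested beta genes lie below 0. Of the 21 tested gamma genes, 16 lie below 0 and 5 above, many with wider bars.

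The 10 classical cadherins measured had 2 calls, both lower, a median log2 fold change of -0.30 and 8 values below 0. The 38 tested clustered protocadherins had 3 calls, all lower and all in the beta cluster, a median of -0.36 and 31 values below 0. Over all tested genes 1.71% were called lower and 50% lay below 0. At an unadjusted p under 0.05, 4 classical cadherins were lower and 1 higher, and 11 clustered protocadherins were lower and 0 higher. Over all genes 9.95% were lower and 10.4% higher at that p. DESeq2 called 4 classical and 6 clustered genes, all lower, where it called 9.68% of all tested genes. The median SE was 0.15 for the classical and 0.36 for the clustered genes. The difference between the 2 families was not tested.

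Levels of different genes were compared per length, as FPKM (fragments scaled by gene length and library total). PCDH10 was the most abundant member at 26.2 ± 0.432 FPKM with 6-shogaol and 24.7 ± 0.116 FPKM in controls (SD, n = 3 each). PCDHGB2 followed at 21.96 ± 3.52 FPKM with 6-shogaol and 19.4 ± 3.13 FPKM in controls, with a wider spread. Next came PCDH17, at 13.0 ± 0.189 FPKM with 6-shogaol and 14.3 ± 0.240 FPKM in controls, and then CDH2, the leading classical cadherin, at 10.4 ± 0.655 FPKM with 6-shogaol and 10.4 ± 0.258 FPKM in controls. In controls CDH24 (9.08 ± 0.583 FPKM) and PCDHGB1 (8.67 ± 2.26 FPKM) did not differ beyond their spread, and neither did CDH10 (7.11 ± 1.22 FPKM), PCDH20 (7.09 ± 0.468 FPKM) and CDH4 (7.05 ± 0.174 FPKM). With 6-shogaol, CDH4 stood at 8.08 ± 0.578 FPKM, above CDH10 at 4.93 ± 0.485 FPKM and PCDH20 at 4.95 ± 0.216 FPKM.

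Lists of genes that work with cadherins were read beside the members, of which 73 of 87 genes were tested and 1 passed, CDHR5 (1.37%, against 3.38% of all tested genes). CDHR5, a cadherin of the intestinal brush border, rose with 1.82, 1.38 and 1.31 CPM with 6-shogaol against 0.368, 0.411 and 0.500 CPM in controls (log2 fold change 1.81, SE 0.31; edgeR adjusted p = 0.0307). The call was lost in edgeR without each of the 6 libraries in turn and without a filter, and with limma without a filter, and CDHR5 was below the FPKM filter of the other limma fits. It was the call among 15 tested genes with cadherin repeats outside the CDH and PCDH symbols, whose median log2 fold change was 0.07. No gene of the 13 catenins and juxtamembrane partners passed edgeR or DESeq2, 5 were lower at an unadjusted p under 0.05 (9.95% of all genes), and the smallest p was that of CTNNB1, encoding beta-catenin. CTNNB1 had 270, 247 and 246 CPM with 6-shogaol against 282, 302 and 324 CPM in controls, with no overlap at a log2 fold change of -0.25 (edgeR adjusted p = 0.123, SE 0.08).

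None of the 15 regulators of the clustered protocadherin locus passed edgeR, and 4 were higher at an unadjusted p under 0.05 (10.4% of all genes). SMCHD1 and SMC3, both higher, passed DESeq2, filtered limma at either pseudocount, and edgeR at a minimum of 1 CPM or without the first 6-shogaol library. Of all tested genes, edgeR called 3.38% and DESeq2 called 9.68%. SMCHD1, which keeps the locus repressed in mouse cells, had 187, 208 and 208 CPM with 6-shogaol against 163, 163 and 164 CPM in controls. The groups were apart at a log2 fold change of 0.30 (edgeR adjusted p = 0.0585, SE 0.07).

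Among 10 genes of the sheddases and the secretase complex, which release cadherin ectodomains or tails, 0 passed edgeR or DESeq2. At an unadjusted edgeR p under 0.05, 1 gene was lower and 1 higher (9.95% and 10.4% of all genes). The smallest p was that of the membrane protease gene MMP14, at 214, 190 and 191 CPM with 6-shogaol against 232, 251.4 and 219 CPM in controls (log2 fold change -0.24, SE 0.08; edgeR adjusted p = 0.156). Of 7 tested transcription factors of the cadherin switch, 0 passed edgeR (3.38% of all tested genes) and DESeq2 called 1, TCF4 (9.68% of all). TCF4 was at 24.8, 32.4 and 37.7 CPM with 6-shogaol and at 47.0, 46.1 and 43.4 CPM in controls, with no overlap (log2 fold change -0.53, SE 0.15; edgeR adjusted p = 0.111). Of 13 cytoplasmic partners of protocadherins, 0 passed edgeR or DESeq2. At an unadjusted edgeR p under 0.05, 2 were higher (10.4% of all genes) and 0 lower (9.95% of all). The kinase gene PTK2 had the smallest p, with 158, 153 and 156 CPM with 6-shogaol against 133, 132 and 142 CPM in controls (log2 fold change 0.20, SE 0.06; edgeR adjusted p = 0.131).

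Besides PCDHA8, which was tested, CDH7, CDH12, CDH17, CDH26, PCDHA3, PCDHA14, PCDHAC1, PCDHAC2 and PCDHGA12 had counts with a mean under 10 and gave no comparison. Those at 0 in every library were CDH8, CDH9, CDH16, CDH18, CDH19, CDH20, CDH22, PCDH8, PCDH8P1, PCDH11X, PCDH11Y, PCDH15, PCDHB1 and the alpha genes PCDHA2, PCDHA4, PCDHA5, PCDHA6, PCDHA7, PCDHA9, PCDHA11, PCDHA12 and PCDHA13. Just inside the mean of 10 were PCDHA10 at 11.5 and PCDHA1 at 12.3 counts, and just outside were PCDHGA12 at 9.0 and PCDHA8 at 8.5 counts.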

How the data were processed

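The members, classes and partner lists were chosen with earlier results of these data known. The authors deposited raw counts per gene and FPKM values for the same genes, per the file headers. A count of 0 is written there as 0.0001 FPKM. Aligner, counter and strand setting are not given in the sources used here. The submitters' processing notes list the mouse builds GRCm38 and mm10, while the gene identifiers are human. In each library more genes had 4 counts (1336 to 1465) than 3 (539 to 606) or 5 (297 to 342), so the deposited counts may not be plain tallies of reads. The test was edgeR 4.0.16 under R 4.3.3 (filterByExpr, TMM, glmQLFTest, Benjamini-Hochberg adjustment over 19279 genes, threshold 0.05). CPM are TMM-scaled, and SEs were taken from the ratio of each log2 fold change to the root of its F statistic. The biological coefficient of variation was 25.3%. The pipeline was tested on simulated counts. Alternatives were DESeq2 1.42.0, limma 3.58.1 on log2(FPKM + 1) and log2(FPKM + 0.1), RLE and upper-quartile scaling, other filters, a replicate block and each library left out. Members were named in full if they passed the test or an unadjusted p under 0.05, were among the 8 with the highest CPM, or led their class in level or fold change. The others are named at the ends of ranges or in lists, and further single values (such as PCDH9) were chosen after their values were seen. Shared windows of 100 bases and exon overlap came from GENCODE 29.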

Additional observations from a re-analysis of the deposited data

How the results depend on the processing

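The 7 calls among the members were 13 with DESeq2 (1 higher, 12 lower, adding CDH10, CDH11, PCDHB8, PCDH19, PCDHGA6 and PCDHGB7), 8 at a minimum of 1 CPM (adding PCDHGA6), 5 with filtered limma at either pseudocount (where CDH5 was not tested and CDH6 had adjusted p-values of 0.0521 and 0.0651), 2 with limma without a filter (PCDHB14 and CDH5), and 0 to 8 with 1 library left out. CDH5, CDH6, PCDH1 and PCDH20 kept their call in 2 of 6 such fits and PCDHB9, PCDHB10 and PCDHB14 in 1, with adjusted p-values from 0.0277 to 0.122 and the same direction in every alternative. The 651 calls over all genes were 1866 with DESeq2, 378 without a filter, 277 with limma without a filter, and 98 to 1012 with 1 library left out. The 1 call in the partner lists (CDHR5) was 4 with DESeq2 and 3 at a minimum of 1 CPM, CDHR5 included, 2 with limma at either pseudocount (SMCHD1 and SMC3), 0 without a filter (9 higher and 7 lower at an unadjusted p under 0.05, by edgeR), 0 with limma without a filter, and 0 to 4 with 1 library left out, never CDHR5. With the replicate block, edgeR called 0 members (1 higher and 18 lower at an unadjusted p under 0.05), 0 partner genes (8 higher and 6 lower) and 3 genes in all. Whether equal numbers mark paired samples is not known. Same-numbered libraries deviated with correlations of -0.030, 0.059 and -0.036, within a range of -0.063 to 0.089 over all pairs. Not every library correlated best with its own number. With 3 libraries per group, such correlations cannot decide whether the samples were paired. CDH2 turned from -0.03 to 0.00912 without the second 6-shogaol library (range -0.0604 to 0.00912). PCDHGB1 turned to 0.00556 with the replicate block, to 0.0227, 0.0278 and 0.0227 with limma at a pseudocount of 1, of 0.1 and without a filter, and ran from -0.22 to 0.11 with 1 library left out. The cause was not tested. At this depth PCDHA10 and PCDHGB4 had libraries at 0 counts, so the size of their change could not be read.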

Other observations

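The protocadherin pseudogenes that the rule on symbols leaves out were sparse. PCDHB18P, the most counted, had 69, 29 and 17 counts with 6-shogaol against 70, 40 and 44 in controls. PCDHB17P had 12, 14 and 16 counts with 6-shogaol against 8, 18 and 7 in controls, and PCDHB19P had 11, 16 and 6 counts with 6-shogaol against 12, 7 and 18 in controls. PCDHGB8P had 17, 12 and 12 counts with 6-shogaol against 4, 11 and 4 in controls. PCDHGB9P had 0, 4 and 0 counts with 6-shogaol against 7, 38 and 14 in controls. At these low counts the 2 gamma pseudogenes stood apart between the groups in opposite directions. Over all tested genes, 13.9% were lower and 14% higher without overlap. None of the differences in the pseudogenes was tested.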
